A study of Mus musculus with 4 samples.

Results

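Serpin genes encode a family of proteins with one common fold, most of which inhibit proteases. Their expression was read in mouse osteoblast cultures labelled as Runx3f/f/Col1a1-cre and in wild-type cultures. A gene was taken as a member when its symbol was Serpin, a clade letter from a to i, a number and at most one further letter, and when it had a probe set row of its own. By this rule 53 of 22180 named genes were members, 19 of clade A, 25 of clade B, 2 each of clades F and I, and 1 each of clades C, D, E, G and H. All 53 matched a RefSeq gene of the same symbol. Serpine2 was not analysed here, and 2 rows that list a Serpin symbol beside another symbol were left out.

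The study asked which genes depend on Runx3, a Runt-family transcription factor, during osteoblast differentiation. Osteoblast progenitors from the calvaria of newborn mice were cultured for 21 days with ascorbate and glycerol phosphate, and total RNA of each culture was read on its own Affymetrix Mouse Gene ST array. One group carried floxed Runx3 alleles with Cre driven by the Col1a1 promoter, which is active in cells that make type I collagen; the other is labelled wild type, and the labels do not say whether it carried floxed alleles or Cre. Each group had 2 arrays, called biological replicates 1 and 2, and the labels do not say how many animals gave each culture or whether they were littermates, so p-values measure only the spread between these arrays.

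An inhibitory serpin offers a protease a flexible reactive loop as bait; cleavage of that loop inserts it into the body of the serpin and traps the protease in a covalent complex. Clade A members are mostly secreted plasma proteins, clade B members act largely inside cells and protect them from stray proteases, and clades C to G regulate clotting, fibrinolysis and complement. Some members inhibit nothing: Serpinh1 (Hsp47) folds procollagen in the endoplasmic reticulum, and Serpinf1 (pigment epithelium-derived factor) is a secreted factor of bone and vessels whose loss causes brittle bones, as loss of Serpinh1 does.

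Values are the deposited ones, taken to be on a log2 scale, and a difference is mutant-labelled minus wild type on that scale. Testing required a level above 4.71 on 2 or more of the 4 arrays, a detection floor set from olfactory and vomeronasal receptor rows that should be silent in bone. The Runx3 row was no lower in the mutant-labelled cultures (7.94 and 8.06, against 7.45 and 7.87 in wild type), so the groups are called by their labels. The deleted exons are not named in the labels, so this row, whose probes span the gene, does not settle whether Runx3 was deleted. Median levels over all rows were 5.45 to 5.50 in replicate 1 and 6.05 to 6.08 in replicate 2. Same-numbered arrays held exactly equal values in 37.8% of rows for replicate 1 and 45.1% for replicate 2. Within an array, 44.4% to 46.9% of rows shared their value with at least 1 other row. The tissue tag of the labels reads myoblast. Above the floor were all 10 osteoblast markers on the list used, 8 of 9 myoblast markers and 6 of 8 hepatocyte markers, where 80.4% of all named genes were, so passing it does not tell these cell types apart.

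Of the 53 Serpin genes, 24 passed the floor and 29 did not. Serpina11, Serpina1f, Serpina9, Serpinb6c and Serpinb9f passed only through the brighter replicate 2 arrays. Their replicate 1 differences compare values below the floor. The 24 were 8 of 19 in clade A, 10 of 25 in clade B, both of clade F, and the single members of clades C, D, G and H; Serpine3 and both clade I genes stayed below. A single member, Serpinb2, differed by 1.5-fold or more with one sign in replicate 1 and in replicate 2, and it was lower on the mutant-labelled arrays. That is 1 of 24 members (4.17%), where 1.15% of all 17841 tested genes were lower by that rule, and 0 members were higher, where 1.47% of all genes were. At a lower threshold, 0.32 on the log2 scale, 2 members were higher (Serpina3i and Serpina6; 3.55% of all genes) and 3 were lower (Serpinb2, Serpinb8 and Serpina3n; 2.84% of all genes). By any amount, 6 members were higher within both replicates (16.8% of all genes) and 6 were lower (19.5% of all genes). Another 5 members were exactly equal within both (25.7% of all genes), 7 within 1 replicate only (34.7%), and 0 had opposite signs (3.39%). The median difference of the 24 members was 0 within each replicate, as it was for all tested genes.

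In limma, fitted on all 17841 genes, 0 members and 0 genes (0%) passed an adjusted p of 0.05, and the smallest adjusted p over all genes was 0.312. At an unadjusted limma p under 0.05 there were 4 members, Serpinb2, Serpinb8, Serpina3n and Serpina3i, where 3.96% of all genes (707) passed. With the replicate number as a block, 7 members passed the unadjusted p, where 13% of all genes (2319) did; these were the same 4 with Serpinb9, Serpinb9b and Serpinh1. Serpina3i entered these counts, those of higher members above and the count for replicate 1 given next only because its mutant-labelled arrays passed the floor, so its place in them is no support. Counting replicate 1 alone, 3 members were at least 1.5-fold higher (Serpina3i, Serpina6 and Serpinc1; 2.63% of all genes) and 2 were lower (Serpinb2 and Serpinb8; 1.99%). The 3 higher ones read 4.05, 4.14 and 4.29 on the wild-type array of replicate 1, below the floor, so their fold is uncertain. Replicate 2 alone gave 0 higher (1.83%) and 1 lower (1.40%).

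**Figure D1:**
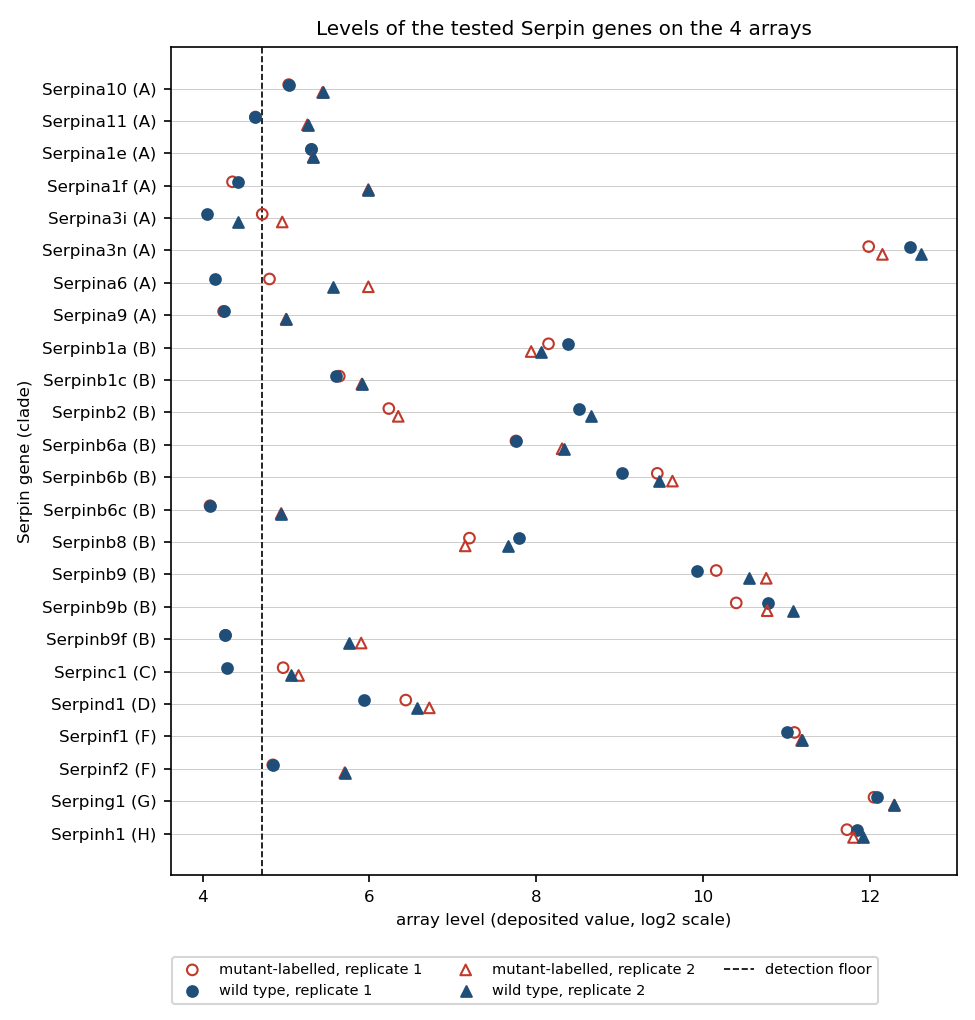
Deposited levels (log2 scale) of the 24 tested Serpin genes, ordered by clade, on each of the 4 arrays. Open red symbols are mutant-labelled arrays and filled blue symbols wild type, circles replicate 1 and triangles replicate 2, and the dashed line is the detection floor of 4.71. For Serpinb2 the mutant-labelled arrays sit at 6.23 and 6.35 and the wild-type arrays at 8.52 and 8.65; for many other genes the symbols of one replicate cover each other.

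**Figure D2:**
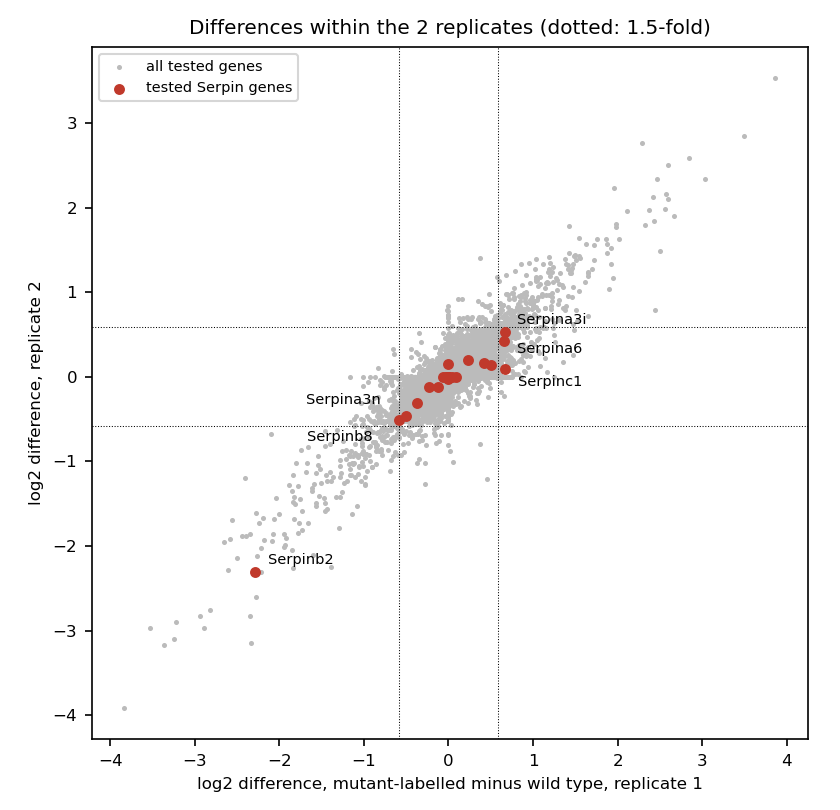
Log2 difference within replicate 1 (x axis) against that within replicate 2 (y axis) for the 17841 tested genes (grey) and the 24 Serpin genes among them (red), with dotted lines at 1.5-fold. Serpinb2 lies at -2.28 and -2.31, and the other 23 Serpin genes lie between the dotted lines in at least 1 replicate.

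Serpinb2, also known as plasminogen activator inhibitor 2, is an intracellular and secreted inhibitor of urokinase that activated macrophages make in quantity. It read 6.23 and 6.35 on the mutant-labelled arrays of replicates 1 and 2 against 8.52 and 8.65 on the wild-type arrays. Both mutant-labelled arrays lay below both wild-type arrays, and all 4 lay above the detection floor. The means were 6.29 ± 0.08 and 8.59 ± 0.10 (SD, n = 2 arrays per group), a log2 difference of -2.30 (SE 0.13) or 4.91-fold. It was lower in both replicates, by 4.87-fold in replicate 1 and 4.95-fold in replicate 2. The unadjusted limma p was 0.000144 and the adjusted p 0.312; with the replicate block the limma adjusted p was 0.155. With an intensity trend in the variance the limma adjusted p was 0.0267, a setting in which 49 genes passed. With a further quantile normalization plus the block it was 0.0461, where 399 genes passed. The block leaves 1 residual degree of freedom. The limma adjusted p was 0.0658 with quantile normalization alone, 0.145 with median centring and 0.405 with no floor.

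Markers of macrophages, a cell type that makes Serpinb2, were lower on the same arrays. Of 12 macrophage markers, 10 were at least 1.5-fold lower within both replicates (1.15% of all tested genes) and 0 higher (1.47%). The median difference of the 12 was -1.86, and 0 of them were below the floor. Their mean level was 6.65 and 6.91 on the mutant-labelled arrays against 8.38 and 8.51 in wild type. The part of this shift in the Serpinb2 difference was not tested, and in such mixed RNA fewer cells of a type and less RNA per cell cannot be told apart.

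Serpinb8, a clade B inhibitor of the furin protease, is the next member after Serpinb2 along chromosome 1 among those measured. It read 7.20 and 7.15 on the mutant-labelled arrays and 7.79 and 7.66 in wild type. The groups did not overlap, and the difference was -0.59 within replicate 1 and -0.51 within replicate 2, where 1.5-fold is 0.58 on this scale, so it missed the 1.5-fold rule in replicate 2. The mean difference was -0.55 (SE 0.13, limma adjusted p = 0.833, lower in 2 of 2 replicates). A further quantile normalization plus the replicate block brought the limma adjusted p to 0.0394, a setting in which 399 genes passed. The limma adjusted p was 0.25 with the block alone, 0.597 with an intensity trend and 0.775 with quantile normalization alone.

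Clade B genes of chromosome 1 form one cluster, and 10 of them were measured. Serpinb2 and Serpinb8 were the 2 above the floor. The other 8, among them Serpinb5 (maspin, an epithelial tumour suppressor) and the Serpinb3 genes, which skin and other epithelia express, stayed below it, so no difference can be read for them. The start regions of the 2 detected genes are shown because these 2, consecutive among the measured members, differed in the same direction. The sequences are the 250 bases before a RefSeq start in GRCm38.p6, with matches to any of 4 motifs in capitals.
Serpinb2, chr1:107511173-107511422, plus strand: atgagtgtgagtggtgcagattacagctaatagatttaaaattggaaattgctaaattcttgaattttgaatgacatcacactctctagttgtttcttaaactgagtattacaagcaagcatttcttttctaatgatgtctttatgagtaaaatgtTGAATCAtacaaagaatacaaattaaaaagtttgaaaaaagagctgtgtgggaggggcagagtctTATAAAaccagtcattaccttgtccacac
Serpinb8, chr1:107589756-107590005, plus strand: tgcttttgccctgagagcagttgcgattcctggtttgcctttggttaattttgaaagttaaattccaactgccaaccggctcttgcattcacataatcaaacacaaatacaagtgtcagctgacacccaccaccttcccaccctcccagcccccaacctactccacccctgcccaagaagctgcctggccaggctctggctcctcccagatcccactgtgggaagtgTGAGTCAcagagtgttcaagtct

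The motifs searched on both strands were TGTGGT and TGCGGT, which Runt-family factors bind, TGANTCA, which AP-1 factors bind, and TATAAA. Serpinb2 held TGANTCA from 94 to 88 bases before its start and TATAAA from 29 to 24 bases before it. RefSeq lists another Serpinb2 start downstream, whose window holds the same matches. Serpinb8 held TGANTCA from 23 to 17 bases before its start. TGTGGT and TGCGGT were not among the letters of either window. Over all 32851 promoter windows, 14.0% held TGTGGT, 5.10% TGCGGT, 6.75% TGANTCA and 12.4% TATAAA. Of 23 windows of tested members, 5 held TGTGGT (21.7%), 0 TGCGGT, 3 TGANTCA (13%, of which 2 are the overlapping Serpinb2 windows) and 3 TATAAA (13%). The windows with TGTGGT belonged to Serpinf1, Serpina11 (2 overlapping windows), Serpina1e and Serpinb9f. A match is a run of letters, not a shown binding site.

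Clade B genes of chromosome 13 protect cells from leukocyte proteases, and 8 of 15 were above the floor. Serpinb9, the inhibitor of granzyme B, read 10.16 and 10.76 on the mutant-labelled arrays and 9.93 and 10.56 in wild type. It was higher by 0.23 and 0.20 within the replicates, while the groups overlapped because replicate 2 lay above replicate 1. Its neighbour and paralogue Serpinb9b read 10.40 and 10.77 against 10.78 and 11.08, lower by 0.38 and 0.31 (SE 0.21, limma adjusted p = 1). The mutant-labelled arrays lay just below the wild-type arrays. A second, dim row of Serpinb9b held 4.42 on each replicate 1 array and 5.95 on each replicate 2 array. The differences of the 2 paralogues thus had opposite signs in both replicates; that contrast was not tested.

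Serpinb6b, a paralogue of the cathepsin G inhibitor Serpinb6a, read 9.45 and 9.64 against 9.04 and 9.48, with differences of 0.42 and 0.16. Serpinb6a itself read 7.76 in each group of replicate 1, and 8.31 against 8.34 in replicate 2. Serpinb1a, an inhibitor of neutrophil elastase, read 8.15 and 7.94 against 8.38 and 8.06. Its differences were -0.23 and -0.12, and the groups overlapped. Serpinb1c, Serpinb6c and Serpinb9f differed by 0 to 0.15 within a replicate. Close paralogues such as these can share probes, so the values of single Serpinb1, Serpinb6, Serpinb9, Serpina1 and Serpina3 genes are uncertain.

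**Figure D3:**
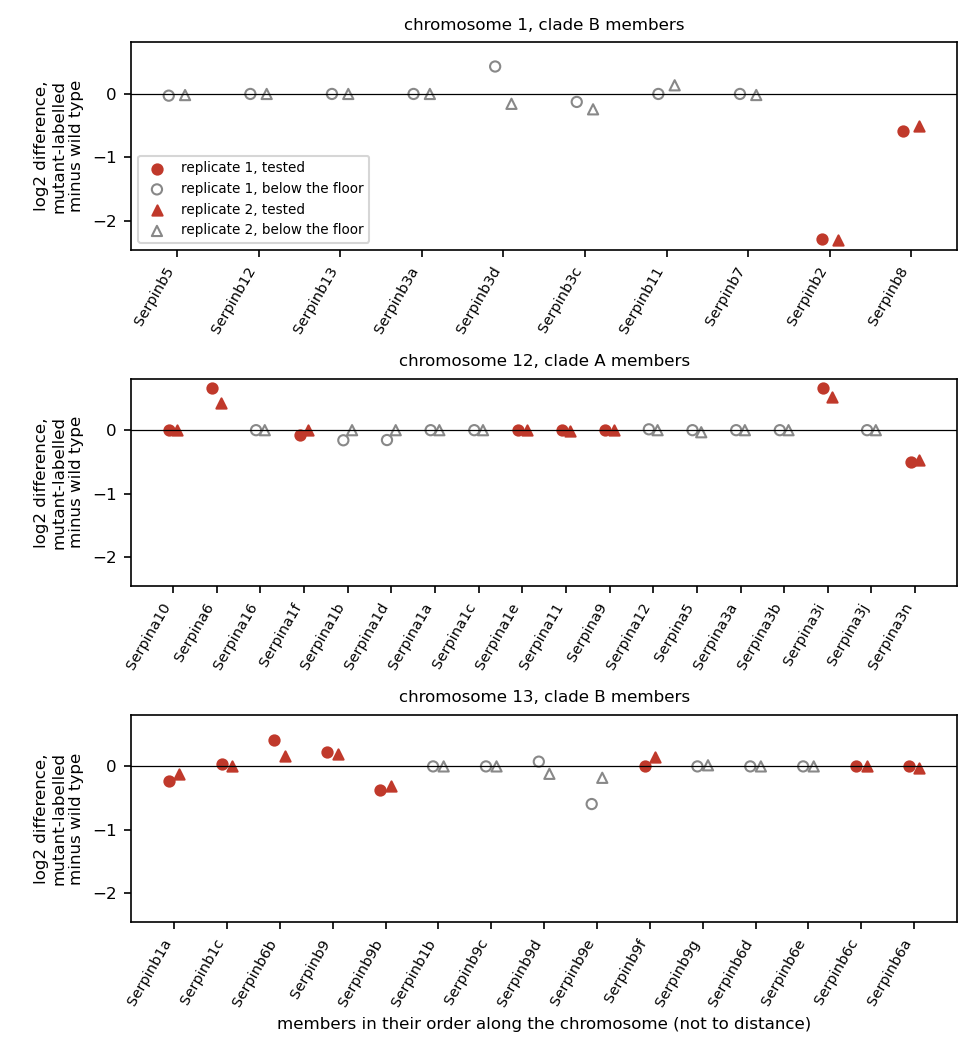
Log2 difference (mutant-labelled minus wild type, y axis) within replicate 1 (circles) and replicate 2 (triangles). The genes are those of clade B on chromosomes 1 and 13 and of clade A on chromosome 12, in their chromosomal order, not to distance. Filled red symbols passed the detection floor and open grey ones did not; the lowest points are those of Serpinb2, at -2.28 and -2.31, with Serpinb8 beside it at -0.59 and -0.51.

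In clade A, whose 18 measured genes on chromosome 12 form one cluster, Serpina3n was the member far above the floor. It encodes a secreted inhibitor related to human antichymotrypsin, which blocks leukocyte proteases such as granzyme B. It read 11.99 and 12.15 on the mutant-labelled arrays and 12.49 and 12.62 in wild type. The groups did not overlap, at 12.07 ± 0.12 and 12.55 ± 0.09 (SD, n = 2). The difference was -0.48 (SE 0.14, limma adjusted p = 1, lower in 2 of 2 replicates), with -0.50 and -0.47 within the replicates. A further quantile normalization plus the replicate block gave -0.46 and a limma adjusted p of 0.0476, a setting in which 399 genes passed. The limma adjusted p was 0.189 with the block alone, 0.312 with an intensity trend and 0.251 with quantile normalization alone.

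Serpina3i, a paralogue of Serpina3n in the same cluster, lay the other way and near the floor. It read 4.71 and 4.95 on the mutant-labelled arrays and 4.05 and 4.42 in wild type, with differences of 0.66 and 0.53. Both wild-type arrays were below the floor of 4.71 and the mutant-labelled arrays near it, so the size of the difference is uncertain. Serpina3i was tested only because the mutant-labelled arrays passed the floor, so no p is given for it. The start regions of the 2 paralogues are shown because their differences had opposite signs. An end-to-end alignment gave 163 identical bases over 271 columns (60.1%), and neither window held one of the 4 motifs. The same alignment gave 56.2% for Serpinb9 and Serpinb9b and 41.4% for Serpinb2 and Serpinb8.
Serpina3n, chr12:104406458-104406707, plus strand: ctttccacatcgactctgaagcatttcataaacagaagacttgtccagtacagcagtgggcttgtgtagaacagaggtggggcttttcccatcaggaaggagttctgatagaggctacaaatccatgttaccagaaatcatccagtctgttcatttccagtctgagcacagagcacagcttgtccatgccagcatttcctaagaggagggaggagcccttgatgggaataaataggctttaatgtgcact
Serpina3i, chr12:104262872-104263121, plus strand: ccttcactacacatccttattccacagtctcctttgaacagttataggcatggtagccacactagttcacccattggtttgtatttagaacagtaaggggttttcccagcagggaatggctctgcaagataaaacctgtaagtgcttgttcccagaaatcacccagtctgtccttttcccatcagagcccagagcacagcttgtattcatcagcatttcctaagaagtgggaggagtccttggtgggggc

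Serpina6, the corticosteroid carrier of plasma, read 4.80 and 5.99 against 4.14 and 5.56, with differences of 0.66 and 0.43. The wild-type array of replicate 1 was below the floor, and the groups overlapped because replicate 2 lay above replicate 1. Serpina10, a clotting inhibitor that works with protein Z, Serpina1e of the antitrypsin group and Serpina9, a gene of germinal centre B cells, were exactly equal within both replicates. Serpina11 and Serpina1f were equal in 1 replicate and differed by -0.01 and -0.07 in the other. The remaining antitrypsin genes (Serpina1a to Serpina1d), Serpina5 (the protein C inhibitor), Serpina7 (the thyroxine carrier) and Serpina12 (vaspin) were below the floor. Apart from Serpina5, these are known mainly as products of liver or adipose tissue.

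Clades C and D hold inhibitors of clotting proteases. Serpinc1, which encodes antithrombin, read 4.96 and 5.15 on the mutant-labelled arrays and 4.29 and 5.06 in wild type. Its difference was 0.67 within replicate 1, where wild type was below the floor, and 0.09 within replicate 2 (limma adjusted p = 1). Without wild-type replicate 1 the difference was -0.002. Serpind1, or heparin cofactor II, read 6.44 and 6.72 against 5.93 and 6.57, with differences of 0.50 and 0.15. Its difference over all arrays was 0.32; it was 0.004 without wild-type replicate 1, 0.18 without mutant-labelled replicate 2 and 0.64 without wild-type replicate 2. Both genes were higher within each replicate, and in both the groups overlapped.

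Serpinf1 read 11.10 and 11.18 on the mutant-labelled arrays and 11.01 and 11.18 in wild type. Its difference was 0.09 within replicate 1 and exactly 0 within replicate 2 (mean 0.05, SE 0.14, limma adjusted p = 1). Serpinf2, the plasma inhibitor of plasmin, was exactly equal within both replicates, at 4.84 and 5.70. Serping1, the inhibitor of the complement C1 proteases, read 12.05 and 12.30 against 12.09 and 12.30, a difference of -0.04 in replicate 1 and exactly 0 in replicate 2. The sources used here do not say how equal values arose, so equality does not show that these genes were unchanged.

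Serpinh1, the collagen chaperone, read 11.73 and 11.81 on the mutant-labelled arrays and 11.85 and 11.93 in wild type. The groups did not overlap, and the difference was -0.12 within each replicate (SE 0.12, limma adjusted p = 1, lower in 2 of 2 replicates). With the replicate block the unadjusted limma p was 0.00297 and the adjusted p 0.172. Serpine3 was below the floor on each array, and so were Serpini1, the neuroserpin of neurons (3.85 in each group of replicate 1 and 4.25 in each group of replicate 2), and Serpini2.

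The 29 members below the floor had levels from 2.95 to 4.79. Serpinb9e was above the floor on 1 array, wild-type replicate 1. Of the 29, 16 were exactly equal within both replicates and 8 within 1, and 27 shared a value with another row on at least 1 array. Among the 24 tested members 9 shared no value on any array, including Serpinb2, Serpinb8, Serpina3n, Serpinf1 and Serping1, and 4 shared a value on all 4 arrays (Serpina1e, Serpina9, Serpinb6c and Serpinf2).

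Genes that serpins act on or with were counted in fixed lists, again without a call in limma (0 of each list passed the adjusted threshold). Median differences were 0.01 for plasminogen activation, 0.03 for clotting, -0.05 for complement, -0.02 for granule proteases, 0 for cathepsins and -0.01 for genes tied to Serpinf1, beside 0 over all tested genes. In the plasminogen activation list, 2 of 12 tested genes were at least 1.5-fold higher within both replicates (1.47% of all tested genes) and 0 lower (1.15%). They were Plat, the tissue plasminogen activator, at 10.45 and 10.71 against 9.78 and 9.96, and Thbd, the thrombin-binding thrombomodulin, at 10.98 and 11.17 against 10.27 and 10.41. Plau, the urokinase that Serpinb2 inhibits, read 8.50 and 8.82 against 9.0 and 9.18 and differed by -0.51 and -0.36 (limma adjusted p = 1). Its receptor gene Plaur differed by -0.11 and -0.08.

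In the clotting list, 1 of 14 tested genes was higher and 1 lower by the 1.5-fold rule (1.47% and 1.15% of all tested genes). Tfpi2, a Kunitz-type inhibitor, had log2 differences of 0.90 and 0.63, and F13a1, the factor XIII subunit that macrophages also make, of -1.92 and -1.91. The thrombin gene F2 was below the floor. In the complement list, 5 of 11 tested genes were lower and 1 higher. The list holds C1 proteases, which Serping1 inhibits, beside other complement genes such as those of C1q. C1rb read 7.14 and 7.96 against 10.68 and 10.93, and C1qb, C1qc and C1qa differed by -1.90, -1.27 and -1.07 on average. The other C1r gene, C1ra, differed by 0.25 and 0, and C1s1, another C1 protease gene, by 0.33 and 0.03. C1q genes are macrophage products, and C1ra and C1rb are close paralogues.

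Of 8 tested granule proteases 0 were past 1.5-fold in either direction, and 7 further ones were below the floor, among them Gzmb and Ctsg, targets of Serpinb9 and of Serpina3 proteins. By the 1.5-fold rule 1.47% of all tested genes were higher and 1.15% lower. Exactly equal within both replicates were 3 of the 8 granule proteases (25.7% of all tested genes). Of 13 cathepsins 1 was lower by the rule, Ctss, a macrophage cathepsin, at 6.60 and 7.43 against 9.16 and 9.12. In the list of collagens and folding partners of Serpinh1, 1 of 15 was lower, the cartilage collagen gene Col2a1 (-1.01 and -0.88), while Col1a1 differed by -0.02 and 0. The list median was -0.02. In the list of 7 genes tied to Serpinf1, 1 was lower, the osteoblast gene Ifitm5 (-0.86 and -0.87), linked with Serpinf1 through forms of brittle bone disease. Ifitm5 is not counted there as a binding partner, and it is also among the osteoblast markers.

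Other secreted protease inhibitors gave 2 higher and 3 lower among 25 tested genes, and a list median of 0. Over all tested genes 1.47% were higher and 1.15% lower by this rule, which also holds for the markers below. Wfdc17, a myeloid gene with a whey acidic protein fold, was 6.89-fold lower, Pi15 1.91-fold and Itih5, of the inter-alpha-trypsin inhibitor family, 1.98-fold. Spock2, a proteoglycan of the testican group, was 2.32-fold higher. Among markers of cells that hold serpin targets or make serpins, 0 of 5 tested neutrophil genes, 0 of 5 T and NK cell genes, 0 of 2 mast cell genes, 0 of 6 hepatocyte genes and 0 of 6 keratinocyte genes were past 1.5-fold in either direction. Exactly equal within both replicates were 4 neutrophil, 4 T and NK cell, 4 hepatocyte and 2 keratinocyte genes (25.7% of all tested genes). These counts therefore do not show that the cell types were unchanged. Osteoblast markers gave 5 lower and 0 higher of 10, endothelial markers 2 higher of 8 (1 of them, Emcn, passed the floor only through the mutant-labelled arrays, at 5.15 and 5.26 against 3.76 and 4.42), chondrocyte markers 2 lower of 8, adipocyte markers 1 lower of 6 and osteoclast markers 1 lower of 7. The part of these markers in the Serpin differences was not tested.

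**Figure D4:**
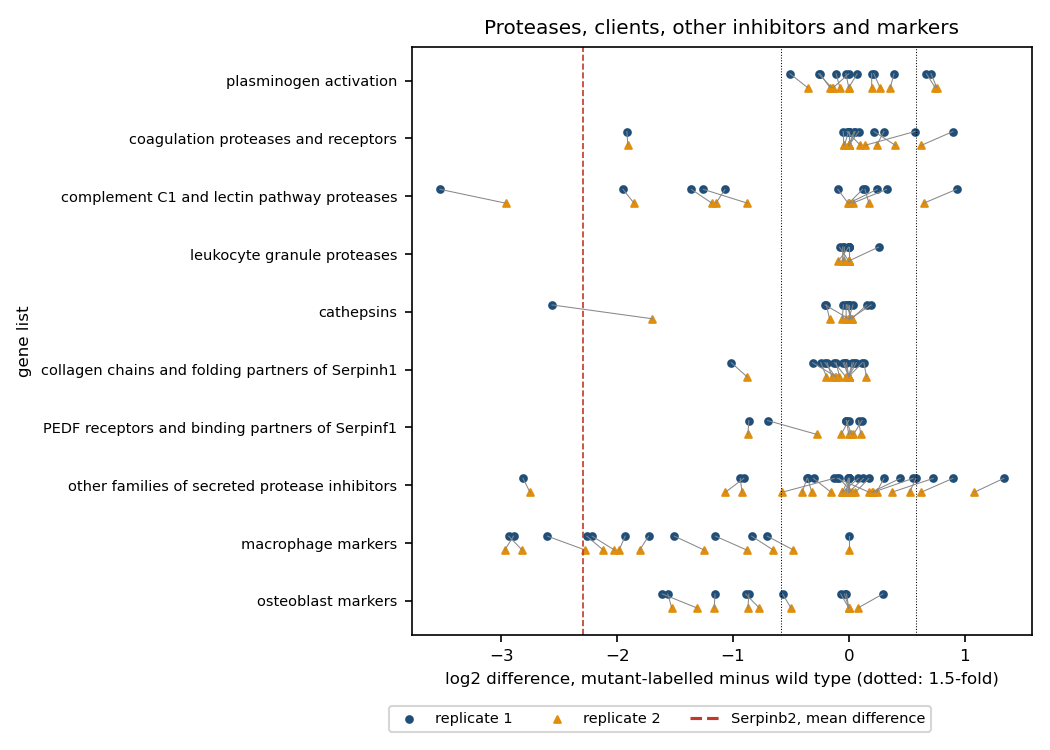
Log2 difference (mutant-labelled minus wild type) of each tested gene of 8 lists of serpin partners and other inhibitors and of 2 marker lists, with replicate 1 as blue circles joined to replicate 2 as orange triangles. The dashed red line is the mean difference of Serpinb2, -2.30, and dotted lines mark 1.5-fold; 10 of 12 macrophage markers lie left of the lower dotted line in both replicates.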

How the data were processed

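RNA was measured on 4 arrays, 2 per group. The values deposited by the authors are taken as log2 because the submitters' processing notes list RMA, beside Partek, with no versions. Log base, centring and how arrays were combined: not given in the sources used here. The platform annotation named the rows: of 41345 rows, 23521 had 1 symbol, 1814 several and 16010 none listed. The row with the highest mean stood for a gene (Serpinb9b had 2 rows). The floor of 4.71 is the 90th percentile of mean levels over 1405 receptor rows (olfactory, vomeronasal).

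Groups were compared with limma 3.58.1 under R 4.3.3: lmFit with the group alone as term, then eBayes, two-sided p and Benjamini-Hochberg adjustment over 17841 genes. The fit was first tested on simulated data. Differences within each replicate number were described without a test, as each holds 1 array a group. The number of arrays limits the precision. Members, lists and tests were chosen with earlier results of these data known. Members were named with all 4 values when at least 1.5-fold apart within both replicates, when the unadjusted p was under 0.05, or when listed beforehand (Serpinf1, Serping1, Serpinh1, Serpinb6a, Serpina3n, Serpind1, Serpinc1, Serpini1); other members given in full were chosen after their values were seen. At most 4 genes a list past 1.5-fold were named, by smallest p; Plau, Plaur, F2, C1ra, Col1a1, Gzmb and Ctsg were added after their values were seen. Promoter windows are RefSeq's, found for 47 of 53 members. Alternatives covered the floor, normalization, probe set choice, fold threshold, variance trend, replicate block and each array left out.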

Additional observations from a re-analysis of the deposited data

How the results depend on the processing

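The counts of Serpin genes at least 1.5-fold apart within both replicates (0 higher, 1 lower) were the same with a floor at the overall row median, no floor, quantile normalization again, median centring, the mean of all rows of a gene, and a 2-fold threshold. At a lower threshold, 0.32 on the log2 scale, they were 2 higher and 3 lower of the 24 tested, where 3.55% of all genes were higher and 2.84% lower; Serpina3i, tested only through its mutant-labelled arrays, is one of the higher. With 1 replicate counted alone they ran from 0 to 3 higher and from 1 to 2 lower. The 3 higher, in replicate 1, were below the floor on its wild-type array. The number of genes past an adjusted limma p of 0.05 was 0 in the main setting, 0 with the replicate block, 49 with an intensity trend and 399 with quantile normalization and the replicate block together, and from 0 to 0 with an array left out. The block was an alternative because the labels do not say what a replicate number marks; same-numbered arrays deviated together (Pearson r = 0.92 across genes, which are not independent replicates and include the equal values). With an array left out, the offset between replicates stays in the difference: Serpinf1 then ran from -0.042 to 0.134, Serping1 from -0.139 to 0.104, Serpinb6a from -0.3 to 0.277 and Serpinc1 from -0.002 to 0.765, each turning sign at least once, while Serpinb2 ran from -2.37 to -2.23, Serpinb8 from -0.61 to -0.48 and Serpina3n from -0.56 to -0.40. The 12 Serpin genes with one sign in both replicates kept it after quantile normalization again. They include Serpina3i, tested only through its mutant-labelled arrays. Median centring kept the signs too, but same-numbered arrays had nearly equal medians, so it could not turn them. Serpini1, below the floor, has no fitted value.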
